A study of Homo sapiens with 6 samples.

Results

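The transcripts of 7 genes were followed in CAOV2 human ovarian cancer cells treated with siRNA against YAP: the SRC-family tyrosine kinase genes LCK, YES1, SRC, FYN, LYN and FRK, and CSK, the kinase that restrains them. They were picked by symbol from the 17211 genes of the deposited table, with the difference between the siRNA groups already known, so that their own values are described here without a test. There were 3 siYAP libraries, transfected with siRNA targeting YAP, and 3 siNT libraries, transfected with a non-targeting siRNA. The labels give CAOV2 as an ovarian cancer cell line in one field and call the cells primary in the titles. Both groups were the same cells and received 100 pmol of siRNA with 6 µL of lipid reagent for 2 days, with collection at day 3. The 2 siRNA reagents were bought from different makers, and an effect of losing YAP cannot be told apart from one of the reagent. The libraries are labelled biological replicates, with nothing on passage or day. The p-values below therefore reflect only how far these libraries scatter, which may be technical.

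SRC-family kinases sit on the inner face of the cell membrane and phosphorylate tyrosines on adhesion proteins, adaptors and growth factor receptors. CSK adds a phosphate to a tyrosine in their tail, which folds the kinase into a closed form, and phosphatases that take this phosphate off open it again. SRC, YES1 and FYN are made in most tissues, LYN in blood cells and many epithelia, LCK mainly in T cells, and FRK, a more distant relative, mainly in epithelia. YAP, the transcriptional co-activator encoded by YAP1, takes its name from YES1, since it was found as a protein that binds the SH3 domain of that kinase.

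The recovered reads came to between 25478595 and 31790340 per library. YAP1 stood at 278, 327 and 294 normalized counts in siYAP and at 6221, 5801 and 5955 in siNT, a log2 difference of -4.32 (standard error 0.0593; limma adjusted p = 1.00e-22). Of the 17200 genes tested with limma, 4926 were called higher (28.6%) and 4841 lower (28.1%) in siYAP, 56.8% in all, and edgeR on recovered reads called 61.2% of 15659 genes. Among 12 ovarian carcinoma and epithelial markers, 10 were measured, of which 2 were higher, 5 lower and 3 not called, and their summed level was 73142 to 79534 in siYAP and 97358 to 105771 in siNT. KRT8 (33087 ± 1778 in siYAP and 35206 ± 1349 in siNT, SD, n = 3) and KRT18 (17109 ± 761 in siYAP and 27495 ± 1133 in siNT, SD, n = 3), the keratins of simple epithelia, carried much of this sum, and each overlaps the other's annotated gene on the opposite strand. KRT18 fell, and KRT8 was not called (limma adjusted p = 8.27e-12 and 0.0783), although KRT8 was called lower without siNT replicate 1 or without siYAP replicate 1 (adjusted p = 0.00691 and 0.0123). The ovarian markers PAX8 and MUC16 were at 8.38 to 44.9 normalized counts in every library, and WT1 and WFDC2 were not analysed here. Other markers of the list stood higher. MECOM (466 in siYAP and 892 in siNT) and KRT7 (11686 in siYAP and 22847 in siNT) were among those that fell. EPCAM (838 in siYAP and 501 in siNT) and CDH1 (488 in siYAP and 256 in siNT) rose. These markers, beyond KRT8 and KRT18, were named after their values were seen.

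The annotated starts of LCK and YES1 show how unlike these genes are at their promoters, and so their sequences are given first. LCK has 2 start sites in RefSeq (GRCh38.p14, plus strand), one at the far end (chr1:32251015-32251314) and one close to the coding part (chr1:32273871-32274170), and YES1 has 1 (chr18:812193-812492, minus strand). Each sequence runs from 250 bases before the start to 50 after it, 5′ to 3′, and capitals mark every match to the motifs searched.
LCK, far start: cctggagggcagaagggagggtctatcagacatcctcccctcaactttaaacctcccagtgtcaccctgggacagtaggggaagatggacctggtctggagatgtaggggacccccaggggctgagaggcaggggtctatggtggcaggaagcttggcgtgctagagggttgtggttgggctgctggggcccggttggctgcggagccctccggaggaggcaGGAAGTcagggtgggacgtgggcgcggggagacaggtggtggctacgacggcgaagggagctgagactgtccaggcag
LCK, near start: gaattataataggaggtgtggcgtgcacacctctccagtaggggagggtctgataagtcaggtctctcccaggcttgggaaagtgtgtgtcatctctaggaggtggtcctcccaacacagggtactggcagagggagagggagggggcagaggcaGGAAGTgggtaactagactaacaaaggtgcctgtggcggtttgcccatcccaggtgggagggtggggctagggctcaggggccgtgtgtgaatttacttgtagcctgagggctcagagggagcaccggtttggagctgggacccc
YES1: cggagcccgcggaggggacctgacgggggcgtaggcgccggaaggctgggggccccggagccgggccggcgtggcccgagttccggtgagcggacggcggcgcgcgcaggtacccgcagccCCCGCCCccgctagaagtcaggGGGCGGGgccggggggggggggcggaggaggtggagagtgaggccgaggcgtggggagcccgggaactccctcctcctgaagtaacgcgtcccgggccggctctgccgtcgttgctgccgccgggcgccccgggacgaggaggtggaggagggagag
The capitals are GGAAGT, a core that ETS factors bind, in both LCK promoters and CCCGCCC or its reverse complement, the GC box, in that of YES1. The GC content was 64.3% and 58.7% at the 2 LCK starts and 78.7% at the YES1 start, against a median of 58.7% over 35116 promoters.

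Of the 7 genes, 5 had 9 promoters in this RefSeq table (2 for LCK, 4 for FYN and 1 each for YES1, FRK and CSK), and SRC and LYN had none. Both strands were searched for these motifs and for 3 others. One was GGAATG, a core that TEAD factors bind. Another was TGANTCA, the site of AP-1 factors. The last was the TATA box, searched as TATAAA. No 2 matches in these promoters overlapped. GGAATG and TGANTCA were found in 0 of the 9, and TATAAA also in 0, while 14.0%, 7.71% and 11.5% of all promoters hold them. GGAAGT was found in both LCK promoters and in that of FRK, and in 22.8% of all promoters. CCCGCCC was found in the YES1 promoter and in 2 of the 4 FYN promoters, and in 33.1% of all. A match describes letters in a window of 300 bases and no match says nothing about binding elsewhere.

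Among the kinases with the strongest tie to adhesion and growth signalling, SRC and YES1 were the most abundant per length in both groups, and both were higher in siYAP. SRC (ENSG00000197122, GRCh38 chromosome 20, 37344685 to 37406050, plus strand), the founding member, had 4239, 4026 and 3891 normalized counts in siYAP and 2851, 3294 and 3045 in siNT. The siYAP libraries all lay above the siNT libraries, at 132% of the siNT mean (log2 difference 0.40, standard error 0.0525). YES1 (ENSG00000176105, chromosome 18, 721588 to 812546, minus strand), the kinase that YAP binds, had 3722, 3855 and 4081 normalized counts in siYAP and 3497, 3252 and 3184 in siNT. These groups were also apart, by less: the lowest siYAP library stood just above the highest siNT library, and the siYAP mean was 117% of that of siNT (log2 difference 0.23, standard error 0.0493). FYN (ENSG00000010810, chromosome 6, 111660332 to 111873452, minus strand), which couples integrins and the T cell receptor to signalling, had 521, 515 and 485 normalized counts in siYAP and 305, 333 and 338 in siNT. It showed the largest difference upward among the 7 genes, at 156% of the siNT mean (log2 difference 0.64, standard error 0.0758), with no overlap.

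LCK and LYN, the kinases best known from lymphocytes, were lower in siYAP. LCK (ENSG00000182866, chromosome 1, 32251239 to 32286165, plus strand), which starts signalling at the T cell receptor, had 9.97, 13.8 and 17.1 normalized counts in siYAP and 135.1, 133.6 and 123.3 in siNT. These were 11, 14 and 18 reads in siYAP and 129, 125 and 102 reads in siNT, so that the siYAP values rest on few reads, but the groups were far apart. The siYAP mean was 10.4% of the siNT mean (log2 difference -3.20, standard error 0.202), and this difference was number 6 from the lowest among the 17200 genes. LYN (ENSG00000254087, chromosome 8, 55879813 to 56014168, plus strand), a kinase of B cell and mast cell receptors that is also made in epithelial cancers, had 397, 383 and 354 normalized counts in siYAP and 754, 658 and 737 in siNT. All siYAP libraries lay below all siNT libraries, at 52.7% of the siNT mean (log2 difference -0.92, standard error 0.0738), number 603 from the lowest.

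FRK (ENSG00000111816, chromosome 6, 115931149 to 116060758, minus strand) gave no separation. It had 877, 901 and 920 normalized counts in siYAP and 973, 808 and 863 in siNT, so that the siYAP values lay inside the siNT range (log2 difference 0.03, standard error 0.0655). CSK (ENSG00000103653, chromosome 15, 74782057 to 74803198, plus strand) had 3642, 3578 and 3336 normalized counts in siYAP and 4753, 5043 and 5071 in siNT. Every siYAP library was below every siNT library, at 71.0% of the siNT mean (log2 difference -0.49, standard error 0.0471). All 7 genes are protein-coding, all passed the filter on low values with at least 1 normalized count in each library, and none overlaps another listed gene in GENCODE 29. In all, 3 were higher without overlap, 3 lower without overlap and 1 overlapped, and 61.5% of all genes tested had groups that did not overlap. In bulk RNA, fewer cells that make a transcript and less of it per cell cannot be told apart.

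**Figure D1:**
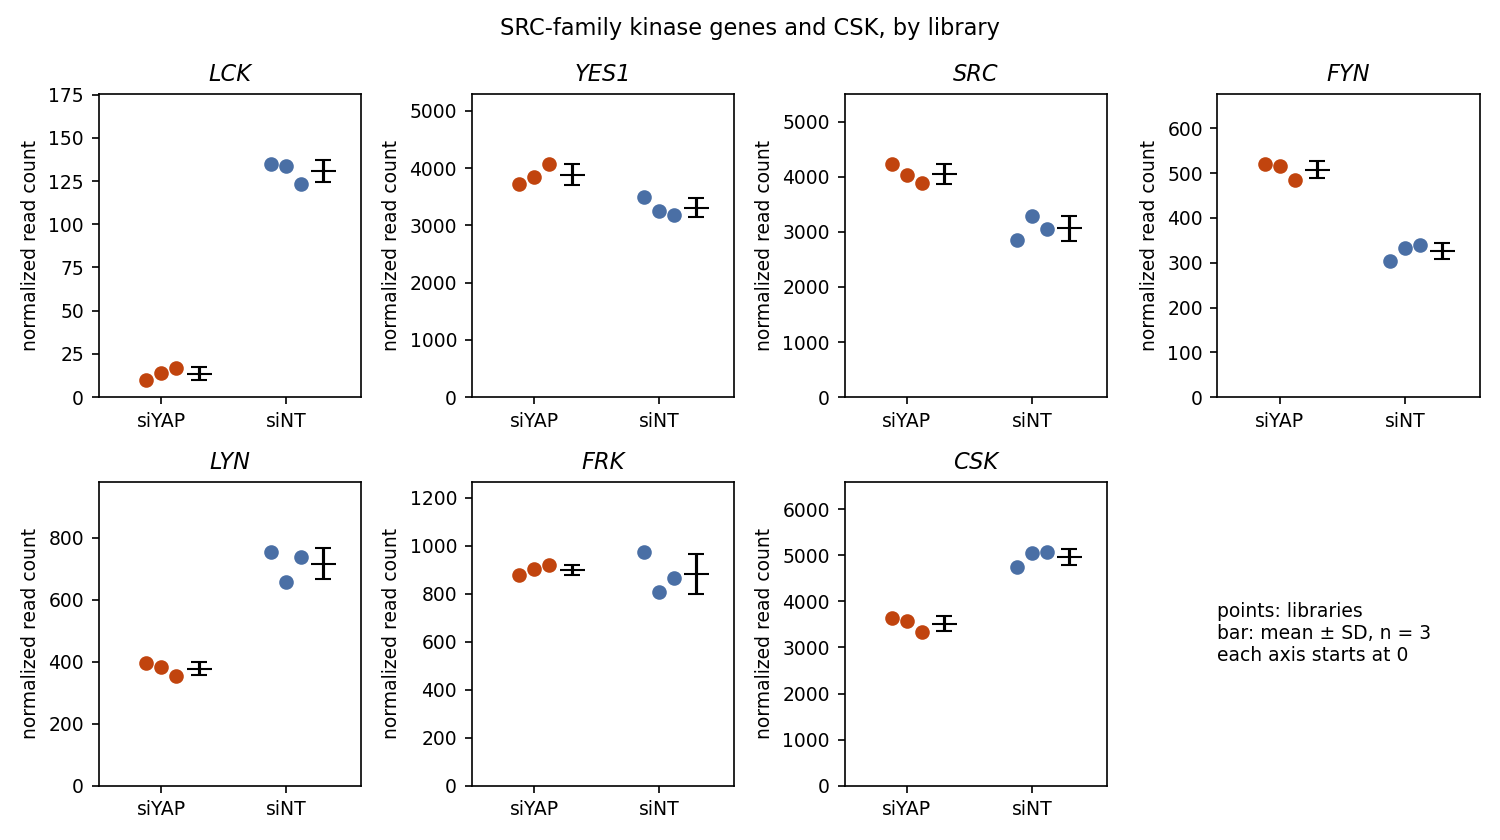
Normalized read counts of the 7 genes (vertical axes, each from 0) in the 3 siYAP libraries (left, red) and the 3 siNT libraries (right, blue), with the mean and SD beside the points. LCK, LYN and CSK are lower and YES1, SRC and FYN higher in every siYAP library than in any siNT library, and the points of FRK overlap.

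To compare levels between genes, normalized counts were divided by the length of each gene's merged exons, from 3.34 kb in LCK to 13.2 kb in FRK. CSK came first in both groups, at 769.9 ± 35.4 per kb in siYAP and 1084 ± 38.5 per kb in siNT (SD, n = 3). YES1 was at 762 ± 35.6 and SRC at 626 ± 27.1 per kb in siYAP, and at 649 ± 32.3 and 474 ± 34.3 per kb in siNT. The libraries of CSK and YES1 overlapped on this scale in siYAP but not in siNT, and those of YES1 and SRC were apart in both groups.

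The lower places changed hands. In siYAP the order went on with FYN at 68.4 ± 2.61, FRK at 68.0 ± 1.61, LYN at 61.1 ± 3.56 and LCK at 4.08 ± 1.07 per kb (SD, n = 3), where FYN and FRK overlapped. In siNT it went on with LYN at 116 ± 8.24, FRK at 66.6 ± 6.34, FYN at 43.9 ± 2.45 and LCK at 39.1 ± 1.93 per kb (SD, n = 3), with each library of one gene apart from those of the next. LYN thus took place 6 of 7 in siYAP and place 4 in siNT, and FYN place 4 in siYAP and place 6 in siNT. The ratio of FYN to LYN on the per-kb scale was 1.10, 1.12 and 1.14 in siYAP and 0.337, 0.423 and 0.383 in siNT.

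The make-up of the family shifted with this. Of the summed per-kb level of the 6 kinases, YES1 made up 47.9% ± 2.06 in siYAP and 46.8% ± 1.83 in siNT (SD, n = 3), which overlapped between the groups. SRC made up 39.4% ± 1.82 in siYAP and 34.1% ± 2.52 in siNT. LYN made up 3.84% ± 0.239 in siYAP and 8.35% ± 0.642 in siNT, and FYN 4.30% ± 0.183 in siYAP and 3.17% ± 0.216 in siNT. LCK made up 0.257% ± 0.0665 in siYAP and 2.82% ± 0.0935 in siNT, and FRK 4.28% ± 0.0911 in siYAP and 4.80% ± 0.437 in siNT. With the longest annotated transcript as the length, FYN made up 7.02% in siYAP and 5.23% in siNT, SRC 43.9% in siYAP and 38.6% in siNT, and YES1 42.1% in siYAP and 41.6% in siNT.

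**Figure D2:**
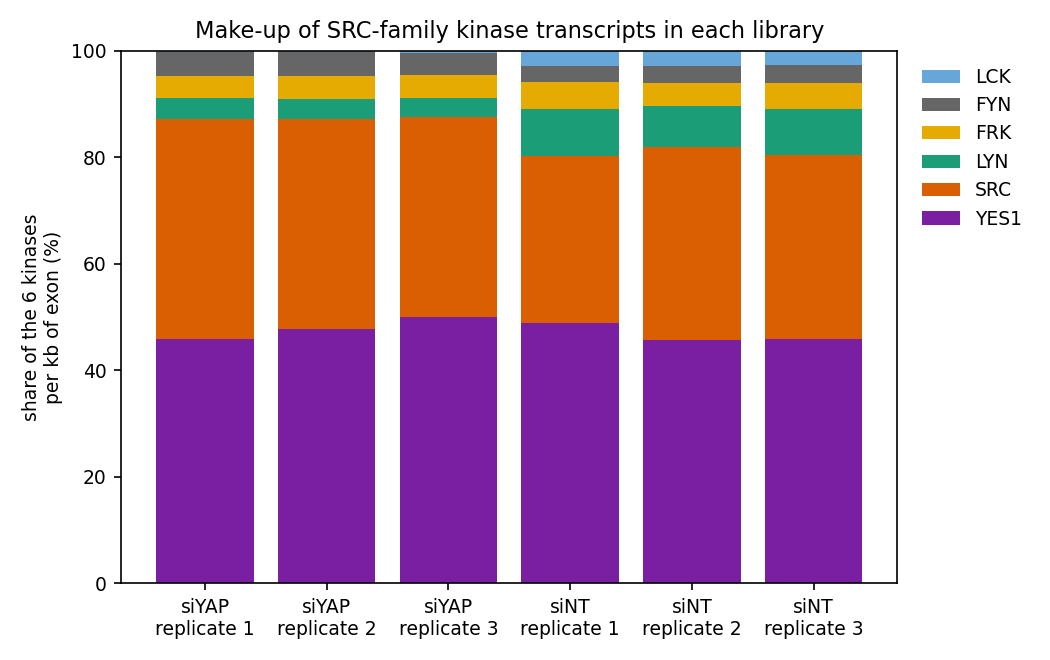
Share of each of the 6 SRC-family kinases in their summed level per kb of exon (vertical axis, percent), for the 3 siYAP libraries (left) and the 3 siNT libraries (right). LYN and LCK take smaller shares and SRC and FYN larger ones in siYAP, while the shares of YES1 overlap between the groups. The shares of FRK are narrowly lower in siYAP (4.17% to 4.35%) than in siNT (4.36% to 5.24%).

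Summed per kb, the 6 kinases came to 1590 ± 8.59 in siYAP and 1388 ± 22.8 in siNT (SD, n = 3), 1.15 times as much in siYAP. CSK was lower at the same time. The ratio of CSK to this sum was therefore 0.502, 0.495 and 0.456 in siYAP and 0.741, 0.789 and 0.815 in siNT, so that the siYAP mean was 0.62 of that of siNT. With the longest annotated transcript as the length, the same ratio was 0.638 in siYAP and 1.04 in siNT, and FYN to LYN was 2.15 in siYAP and 0.731 in siNT. That length placed SRC (875 per kb) above YES1 (838 per kb) in siYAP, so the order of these 2 genes depends on the length used. CSK then had 1272 per kb in siYAP, so its closeness to YES1 there also depends on the length. The same holds for FYN and FRK, at 140 and 68.0 per kb in siYAP, and FYN was placed above FRK in siNT.

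**Figure D3:**
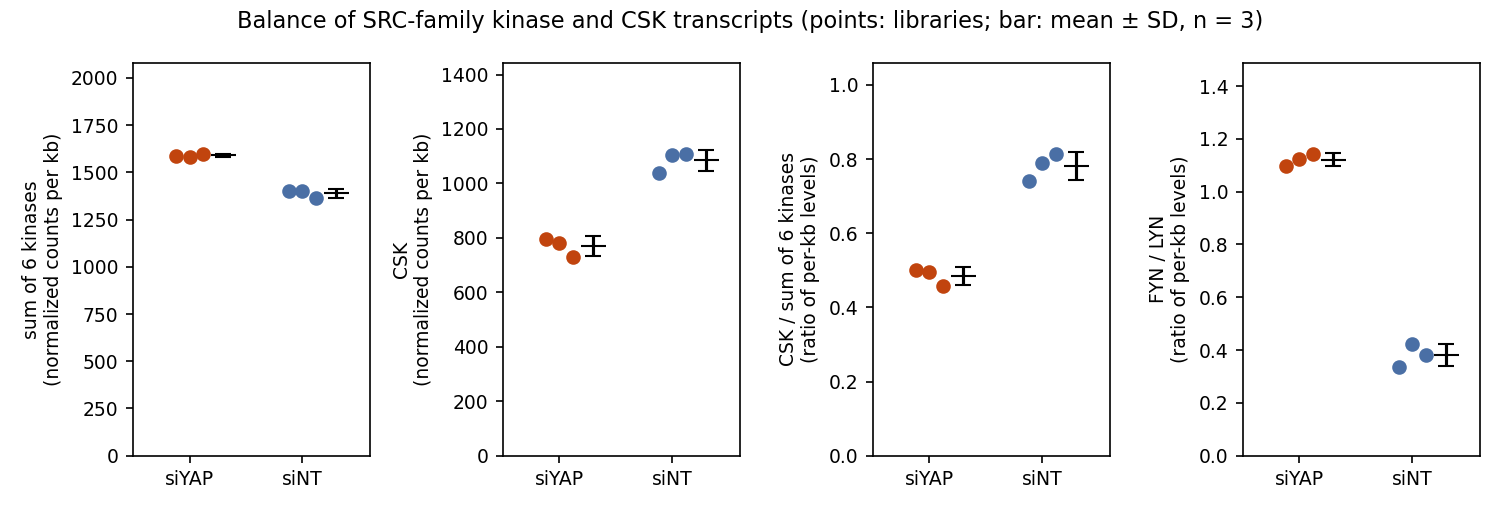
The summed level of the 6 kinases, the level of CSK, the ratio of CSK to the sum and the ratio of FYN to LYN (vertical axes from 0, all per kb of exon) in the siYAP libraries (left, red) and the siNT libraries (right, blue), with mean and SD. The ratio of CSK to the sum is 0.456 to 0.502 in siYAP and 0.741 to 0.815 in siNT.

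LCK works in T cells beside the T cell receptor, so genes of that machinery were read as markers of lymphocytes. Of 19 such genes, 17, among them CD3D, CD3E, CD3G, CD4, CD8A and PTPRC, were not analysed here. The other 2 were LAT, the membrane scaffold of the receptor (42.6 ± 6.52 in siYAP and 60.2 ± 10.3 in siNT), and RHOH, a GTPase of blood cells (52.8 ± 3.16 in siYAP and 81.9 ± 22.8 normalized counts in siNT, SD, n = 3). Both were called lower by limma, as were 28.1% of all genes (adjusted p = 0.0321 and 0.00815), but RHOH lost the call without siNT replicate 2 (adjusted p = 0.0841) or without limma's trend and robust settings (adjusted p = 0.0604). LAT lost it without those settings too (adjusted p = 0.0650), with DESeq2 (adjusted p = 0.0877), at equal library totals (adjusted p = 0.0782) or without siNT replicate 1 or 2 or siYAP replicate 3 (adjusted p = 0.0996, 0.111 and 0.147). The summed level of LAT and RHOH was 91.3 to 99.7 in siYAP and 109 to 172 in siNT. LAT overlaps the unnamed listed gene ENSG00000261067 on the same strand, which had 17.6 normalized counts in siYAP and 17.8 in siNT.

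Of 8 B cell markers, 3 were measured and all were called lower, against 28.1% of all genes. PAX5, the B lineage transcription factor, had 67.5 ± 12.1 normalized counts in siYAP and 137 ± 10.5 in siNT, and CD79A, a chain of the B cell receptor, 24.0 ± 4.81 in siYAP and 64.6 ± 6.99 in siNT (SD, n = 3; limma adjusted p = 2.63e-06 and 3.58e-06). CD22 was low, at 15.4 ± 5.53 normalized counts in siYAP and 27.1 ± 7.14 in siNT, and its groups overlapped (SD, n = 3; limma adjusted p = 0.0242). The summed level of the 3 was 95.7 to 121 in siYAP and 221 to 236 in siNT. The other 5 were not analysed here. Of 9 myeloid markers, 5 were measured: 1 rose, 3 fell and 1 was not called (80.0% called, against 56.8% of all genes), with sums of 140 to 164 in siYAP and 160 to 173 in siNT. CD14, the lipopolysaccharide co-receptor, rose (84.9 ± 12.1 in siYAP and 61.9 ± 8.08 in siNT; adjusted p = 0.0201), a call lost with DESeq2 (adjusted p = 0.0613) or without siNT replicate 1 or siYAP replicate 1 (adjusted p = 0.0826 and 0.118), and CD68, a lysosomal protein, fell (37.3 ± 8.09 in siYAP and 58.3 ± 6.14 in siNT, SD, n = 3; adjusted p = 0.00638), beside an overlapping gene on the other strand. That gene, ENSG00000233223, had 156 normalized counts in siYAP and 216 in siNT, and its part in the values of CD68 was not tested.

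Of 7 fibroblast markers, 5 were measured, of which 3 rose and 2 fell, where 56.8% of all genes were called. The proteoglycan gene LUM had 9819 ± 320 normalized counts in siYAP and 3797 ± 362 in siNT, and the collagen gene COL3A1 3060 ± 79.0 in siYAP and 661 ± 76.9 in siNT (SD, n = 3; limma adjusted p = 4.10e-15 and 4.30e-17). The collagen genes that fell, named after their values were seen, were COL1A1 (369 ± 27.3 in siYAP and 425 ± 11.3 in siNT; adjusted p = 0.0284) and COL1A2, with 2, 1 and 1 reads in siYAP and 11, 10 and 13 reads in siNT (adjusted p = 7.34e-05). The 1 measured endothelial marker of 7, ESAM, fell, as did 28.1% of all genes (1296 ± 39.2 in siYAP and 1774 ± 99.9 in siNT; adjusted p = 2.44e-07). ESAM overlaps ESAM-AS1 on the opposite strand. The part of these marker genes in the values of LCK, LYN and FYN was not tested.

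Beside LCK, the nearest listed genes did not pass the test. FAM167B, 2382 bases away at lower coordinates, had 17.3 ± 5.07 normalized counts in siYAP and 25.0 ± 5.21 in siNT (limma adjusted p = 0.113), and the histone deacetylase gene HDAC1, 5920 bases away on the other side, had 8525 ± 196 in siYAP and 9057 ± 140 in siNT (SD, n = 3; adjusted p = 0.0710). On the sides of YES1, ENOSF1, 8911 bases away, rose slightly (2860 ± 47.4 in siYAP and 2584 ± 35.8 in siNT, SD, n = 3; log2 difference 0.15, limma adjusted p = 0.00808). ENOSF1 overlaps TYMS on the opposite strand, and whether counting used strand is not stated. The unnamed gene ENSG00000273355, 727 bases past the start of YES1, had 8.38 to 12.4 normalized counts in the 6 libraries (limma adjusted p = 0.595).

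The genes whose pattern over the 6 libraries was most like that of LCK, by Pearson correlation of log2 values among 12518 genes, were GALNT6, RNF168 and CORO2B (r = 0.9994, 0.9992 and 0.9988). GALNT6 had 176 ± 19.9 normalized counts in siYAP and 516 ± 12.5 in siNT, and overlaps SLC4A8 on the opposite strand. For YES1 they were SFXN1, APAF1 and WARS2 (r = 0.9996, 0.9990 and 0.9988). SFXN1 had 7275 ± 213 normalized counts in siYAP and 6602 ± 189 in siNT (SD, n = 3). With 2 groups of 3 libraries, such values follow from any difference between the groups together with the order of the libraries within them.

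Of 6 further kinases of the SRC and CSK type, 3 were not analysed here. PTK6, an epithelial relative of FRK, fell to 299, 296 and 304 normalized counts in siYAP, against 375, 377 and 365 in siNT (log2 difference -0.31, limma adjusted p = 0.00156). MATK, the homologue of CSK in blood cells and brain, was near the floor at 7.59 normalized counts in siYAP and 16.8 in siNT. It was called lower (adjusted p = 0.0116), and the call was lost with DESeq2 (adjusted p = 0.0533), without siNT replicate 1 (0.0583) and without siYAP replicate 3 (0.0625). SRMS was at 9.77 normalized counts in siYAP and 5.87 in siNT and was not called. MATK and SRMS lie under the level set for named genes and are given because the list is short, a choice made after their values were seen.

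Of the regulators of SRC kinases, 20 of 22 were measured: 3 rose, 8 fell and 9 were not called (55.0% called, against 56.8% of all genes). At equal library totals 5 of the 20 rose and 4 fell, where 6050 of all genes rose and 3700 fell. The median log2 difference was -0.03. PAG1, the membrane adaptor that brings CSK to its targets, rose to 2897, 2962 and 3242 normalized counts in siYAP, against 1874, 1742 and 1820 in siNT (log2 difference 0.74, standard error 0.0517; limma adjusted p = 5.02e-11). PAG1 thus rose while CSK stood lower, and their libraries did not overlap in either case.

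The phosphatases that act on these kinases went different ways. PTPRJ, a receptor phosphatase that removes phosphates from SRC, fell to 1533 ± 68.2 normalized counts in siYAP, against 2969 ± 104 in siNT (SD, n = 3; log2 difference -0.95, limma adjusted p = 4.33e-13). PTPRA, which removes the inhibitory tail phosphate, rose to 3051 ± 111 in siYAP, against 2394 ± 28.0 in siNT (SD, n = 3; log2 difference 0.35, adjusted p = 1.17e-06), and overlaps VPS16 on the same strand. Of the other measured phosphatases, PTPN1 and PTPN11 fell slightly (log2 difference -0.16 and -0.12, limma adjusted p = 0.00288 and 0.0205). PTPN6 and PTPRE were not called, and these other phosphatases were named after their values were seen. TOM1L1, an adaptor that steers SRC kinases between membranes, rose by 0.59 on the log2 scale (adjusted p = 6.29e-09), and HSP90AB1, a chaperone on which SRC kinases rely, fell by 0.32 (adjusted p = 7.22e-08). TOM1L1 overlaps COX11 on the opposite strand.

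Of the substrates and adaptors that SRC kinases act on or with, 31 of 32 were measured: 9 rose, 16 fell and 6 were not called (80.6% called, against 56.8% of all genes), with a median log2 difference of -0.12. At least 2-fold, 1 fell and 4 rose, where 2.55% of all genes fell and 6.31% rose that much. These shares of all genes cover genes of every level, and no share over genes of like level was taken. The list was also chosen with earlier results of these data known. CDCP1, a membrane protein that SRC kinases phosphorylate and that recruits further kinases, fell to 628, 691 and 682 normalized counts in siYAP, against 2808, 2877 and 3007 in siNT (log2 difference -2.12, standard error 0.0543; limma adjusted p = 3.48e-18). Its siYAP mean was 23.0% of its siNT mean, with no overlap.

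Some partners rose instead. PTK2B, the kinase PYK2, had 1174, 1095 and 1167 normalized counts in siYAP and 326, 347 and 334 in siNT (log2 difference 1.77, limma adjusted p = 1.34e-15). NEDD9, a docking protein of focal adhesions, had 276, 310 and 298 in siYAP and 94.2, 127 and 89.4 in siNT (log2 difference 1.51, adjusted p = 5.80e-10). GAB1, a docking protein of growth factor receptors, rose by 1.19 and SH3PXD2B, a scaffold of invasive membrane protrusions, by 1.03 on the log2 scale (adjusted p = 4.64e-07 and 4.96e-12). PTK2, the focal adhesion kinase FAK and paralog of PTK2B, fell slightly, with 5341 normalized counts in siYAP and 5914 in siNT (log2 difference -0.15, adjusted p = 0.00711). BCAR1, the p130Cas docking protein and paralog of NEDD9, also fell (8635 in siYAP and 10132 in siNT; log2 difference -0.23, adjusted p = 0.000453), and these 2 paralogs were named after their values were seen. GAB1 overlaps an unnamed listed gene on the opposite strand.

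Receptors that signal through SRC kinases were split. Of 23 measured members of 25, 10 rose, 8 fell and 5 were not called (78.3% called, against 56.8% of all genes), with a median log2 difference of 0.13. Here too, no share over genes of like level was taken, and the list was chosen with earlier results known. The neuregulin receptor ERBB3 had 6568, 6271 and 6567 normalized counts in siYAP and 1818, 1964 and 1768 in siNT (log2 difference 1.81, limma adjusted p = 6.64e-18), and its partner ERBB2 2579, 2393 and 2481 in siYAP and 1041, 1111 and 1080 in siNT (log2 difference 1.20, adjusted p = 1.28e-14). GPRC5A, an orphan receptor of epithelia, fell to 6334 ± 268 normalized counts in siYAP, against 13735 ± 171 in siNT (SD, n = 3; log2 difference -1.12, adjusted p = 2.24e-15). CD44, the hyaluronan receptor, fell by 0.74 on the log2 scale (adjusted p = 9.12e-12).

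The integrin chain ITGB3 fell at a low level, with 8.16, 11.8 and 11.4 normalized counts in siYAP and 56.5, 32.1 and 61.6 in siNT (log2 difference -2.12, limma adjusted p = 8.77e-07). ERBB2 overlaps MIEN1 and PGAP3 on the opposite strand. Equal library totals moved the median of all genes by less than 0.1 on the log2 scale and left 62.1% of called genes higher in siYAP, against 50.4% with the authors' size factors.

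**Figure D4:**
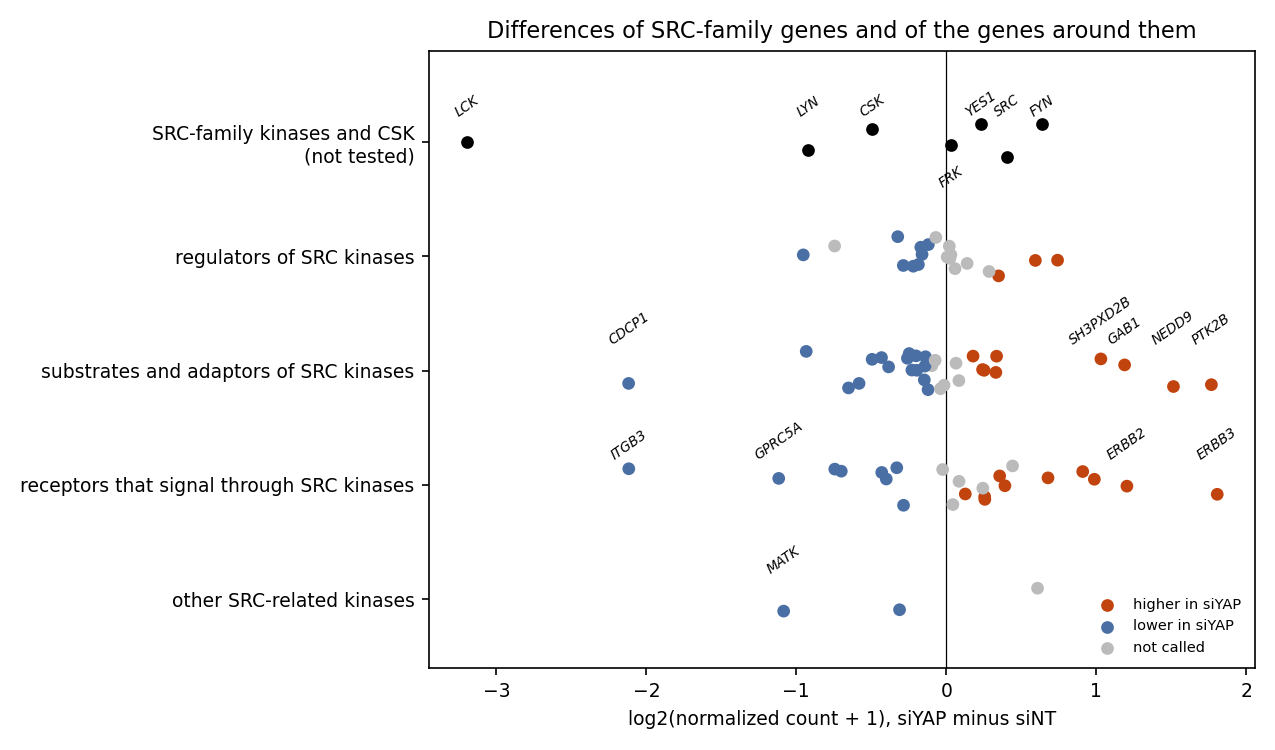
Difference of log2(normalized count + 1), siYAP minus siNT (horizontal axis), for each of the 7 genes (black, not tested) and for each measured gene of the 4 lists around them, coloured by the limma call. LCK stands farthest to the left at -3.20, CDCP1 and ITGB3 follow at -2.12, and ERBB3 and PTK2B stand farthest to the right at 1.81 and 1.77.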

How the data were processed

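mRNA of CAOV2 was sequenced in 3 siYAP and 3 siNT libraries made with a stranded kit, per the labels' protocols. The deposited values are a signal, namely each gene's reads scaled by a factor of its library. FastQC, HISAT2, HTSeq and DESeq2 and the builds hg19 and mm9 are named in the submitters' processing notes. The sources used here give no versions, annotation, strand setting or gene filter. All deposited values (100% in each library, within 0.01 of a read) were whole multiples of what 1 read is worth in that library, so that whole reads were recovered.

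limma 3.58.1 in R 4.3.3, with trend and robust settings and group alone in the design, was fitted to log2(value + 1) of the 17200 genes at 1 or more in at least 3 libraries. P-values were adjusted by Benjamini-Hochberg over all of them and called under 0.05. Fold changes are on that log2 scale, which understates those of low genes. The raw-count test on the recovered reads was an alternative: edgeR 4.0.16 (quasi-likelihood, TMM) called 4923 higher and 4659 lower, and DESeq2 1.42.0 called 4393 higher and 4385 lower. Also tried were each library left out, a block for the replicate number, limma with neither trend nor robust, other filters and scalings, a pseudocount of 0.1 and, for per-kb levels, the longest transcript.

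The 7 genes and all lists were chosen with earlier results of these data known. Named were, per pathway list, up to 5 called genes with the largest difference, a mean of at least 50 in 1 group and no overlap; per marker list, the 2 with the highest mean; and for LCK and YES1 the 3 genes most alike and the nearest listed genes. Identifiers were given symbols where a human name table held them (16662 of 17211), and coordinates and exon lengths from GENCODE 29 on GRCh38, matched by identifier (16743 of 17211). Libraries of a group were no duplicates, with a chi-square of 2.75 to 7.50 per degree of freedom between them. No exact permutation test was run, as 3 against 3 reaches p = 0.1 at the least.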

Additional observations from a re-analysis of the deposited data

How the results depend on the processing

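Of the 7 described genes, none changed sign under other scalings, filters, pseudocounts or tools, and FRK alone did so when a library was left out (log2 difference -0.03 to 0.11). At equal library totals the log2 differences of YES1, SRC, FYN and CSK were 0.32, 0.49, 0.73 and -0.41. Regulators of SRC kinases then counted 5 higher and 4 lower, where all genes counted 6050 higher and 3700 lower. That scaling multiplies all genes of a library by a factor of that library, which raises siYAP values and lowers siNT values. DESeq2, which called 4385 of all genes lower, called 1 further SRC-related kinase lower, PTK6, since MATK was lost. With a library left out, the ranges were -3.37 to -3.01 for LCK, 0.20 to 0.27 for YES1, 0.35 to 0.46 for SRC, 0.59 to 0.67 for FYN, -0.98 to -0.87 for LYN and -0.52 to -0.46 for CSK. In those fits 1 to 2 further SRC-related kinases were called lower, as were 4380 to 4876 of all genes. Same-numbered libraries did not deviate together (r = -0.34 to -0.01, against -0.27 to 0.32 for other pairs). This cannot exclude pairing by number, since deviations from a mean of 3 libraries are bound to balance within a group. With the replicate block, 4654 genes were higher and 4487 lower. Shares within the family are ratios within a library and so are unaffected by scaling, but the longest transcript as the length moved 11 of the 12 shares by more than 1 SD; LYN then made up 3.27% in siYAP and 7.20% in siNT, LCK 0.316% in siYAP and 3.52% in siNT, and FRK 3.41% in siYAP and 3.88% in siNT. LCK, MATK, SRMS, ITGB3 and COL1A2 had under 20 reads in each siYAP library, which limits their precision. The median of all genes moved to 0.09 at equal totals.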
